A study of Mus musculus with 22 samples.

Results

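The genes described here are 38 general macrophage and myeloid genes, chosen by name from a list of genes that most liver macrophages and other myeloid cells transcribe, among the 55573 genes of the stellate cell table and the 55401 genes of the hepatocyte table. Each member was found as 1 row in both tables. RNA was sequenced from primary liver cells of wild-type C57BL/6 mice on a chow diet in 4 groups: hepatic stellate cells given iron (100 uM, its form not stated, 5 libraries, iron 1 to 5), stellate cells labelled placebo (5 libraries, control 1 to 5), hepatocytes given DFO (100 uM, 6 libraries) and hepatocytes labelled placebo (6 libraries). Hepatic stellate cells are the vitamin A-storing pericytes of the liver, and DFO (deferoxamine) binds iron. All cells were plated for 24 h and then treated for 24 h, the hepatocytes on collagen in Williams Medium E and the stellate cells in DMEM, both with serum. The cultures are primary isolates in which cells of other kinds can remain. The ages and sexes of the mice are not in the labels. Nothing says whether the libraries of a group came from separate animals. The p-values therefore weigh each change only against the variation among libraries of a group, and this variation can be technical.

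Macrophages depend on signals through the CSF1 receptor and on the transcription factor PU.1 (Spi1), which together set up and maintain the myeloid programme. Their activating Fc receptors and the adaptor Tyrobp carry or couple to tyrosine-based motifs that pass antibody and lectin binding on to the kinase Syk. Kupffer cells, the resident macrophages of liver sinusoids, take up particles, red cell remnants and modified lipoproteins, make superoxide with the phagocyte oxidase, and present peptides on MHC class II molecules after the invariant chain Cd74 has been cleaved.

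Of the 38 members, 27 had at least 1 promoter window in the RefSeq promoter table (GRCm38.p6, 33 windows, 250 bases before to 50 after the start site). No window was found for Adgre1, Cd14, Cd52, Cd74, Csf1r, H2-Ab1, Itgb2, Lst1, Msr1, Spi1 and Tyrobp, which were not searched. The letters GAGGAAGT, a site form bound by PU.1, were searched on both strands. They stood in windows of Fcgr4, Ctss and Spp1, which is 9.09% of the member windows and 3.20% of all 32851 windows. The letters CTGATTGG, the Y box of MHC class II promoters, were found for Spp1, Irf8, H2-Aa and H2-Eb1, in 12.1% of the member windows and 4.10% of all windows. The longer X box letters TAGCAACAG were in 0 of the member windows and in 0.615% of all windows. Only exact letters were counted, so similar letters, such as tagcaactg in the H2-Eb1 window, were passed over. A match describes these letters only. The 150 bases before the start site are shown for role groups, Fc receptor and antigen presentation genes, that are read apart, and for Spp1, which held both motifs. Capitals mark the motif, read 5′ to 3′ on the gene's strand, and in Fcgr4 the PU.1 letters lie on the opposite strand. The windows are chr1:171018776-171018925 (plus strand) for Fcgr4, chr17:34287824-34287973 (minus strand) for H2-Aa, chr17:34305717-34305866 (plus strand) for H2-Eb1 and chr5:104434961-104435110 (plus strand) for Spp1.
Fcgr4: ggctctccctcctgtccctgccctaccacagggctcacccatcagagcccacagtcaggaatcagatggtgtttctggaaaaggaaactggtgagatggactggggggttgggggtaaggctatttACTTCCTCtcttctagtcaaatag
H2-Aa: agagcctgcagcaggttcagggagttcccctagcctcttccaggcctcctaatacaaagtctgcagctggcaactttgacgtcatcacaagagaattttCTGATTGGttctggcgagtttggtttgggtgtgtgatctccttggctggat
H2-Eb1: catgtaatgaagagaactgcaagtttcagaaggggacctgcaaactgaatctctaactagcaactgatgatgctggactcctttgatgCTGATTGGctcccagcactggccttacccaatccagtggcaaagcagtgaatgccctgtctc
Spp1: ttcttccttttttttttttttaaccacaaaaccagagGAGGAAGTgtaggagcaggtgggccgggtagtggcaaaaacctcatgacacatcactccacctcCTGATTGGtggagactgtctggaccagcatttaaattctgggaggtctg

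Total counts per library were 12058226 to 32067635 in stellate cells and 19342490 to 41839154 in hepatocytes. Among stellate libraries, iron 3, iron 5 and control 3 stood apart: their summed FPKM (counts per kilobase of exon, scaled to 1000000 counts) was 424252.9, 503332.6 and 482999.6, against 297987.9 to 333718.4 in the other 7. Averaged over counts, the exonic length of the counted gene was 4.27, 4.02 and 7.23 kb in these libraries and 5.16 to 5.69 kb in the other 7, and iron 5 had counts in 12535 genes, against 18753 to 24278 elsewhere. Stellate results are given over all 10 libraries, and over the 7 where that changes a call or moves a value by over 1.5 times. Labelled cell types were checked against markers. Col1a1 was at 959.7 to 2685 CPM in iron and 2682 to 5692 CPM in control stellate libraries, and Alb was at 8639 to 10564 CPM in DFO and 6785 to 8333 CPM in control hepatocyte libraries. Levels in a library are given as CPM, counts per 1000000 after TMM scaling, listed as iron 1 to 5 and control 1 to 5, and changes are log2 changes, treated over control, with their standard error (SE) from edgeR's quasi-likelihood test. An edgeR p adjusted over all genes under 0.05 is called a rise or a fall.

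With iron, 25 of the 37 members that could be tested in stellate cells rose and 0 fell, and all 37 log2 changes were above 0. At an unadjusted p under 0.05, 30 were higher and 0 lower. DESeq2's Wald test found 28 higher and 0 lower, and limma on log2(FPKM + 1) found 25 of 36 higher and 0 lower. Over all 15502 genes tested, 4.05% rose and 3.37% fell. The median log2 change was 2.34 over the members and -0.06 over all genes. In 25 of the 37 members every iron library lay above every control library, which held for 8.42% of all genes. Over the 7 libraries, 34 members rose and 0 fell, where 18.3% of 16287 genes rose and 19.8% fell, and in 31 members all iron libraries lay above all controls, against 20.9% of all genes. All 25 members called over 10 libraries were also called over the 7, but 18 of these 25 had a smaller log2 change there. In bulk RNA more cells of a type and more RNA per cell cannot be told apart.

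**Figure D1:**
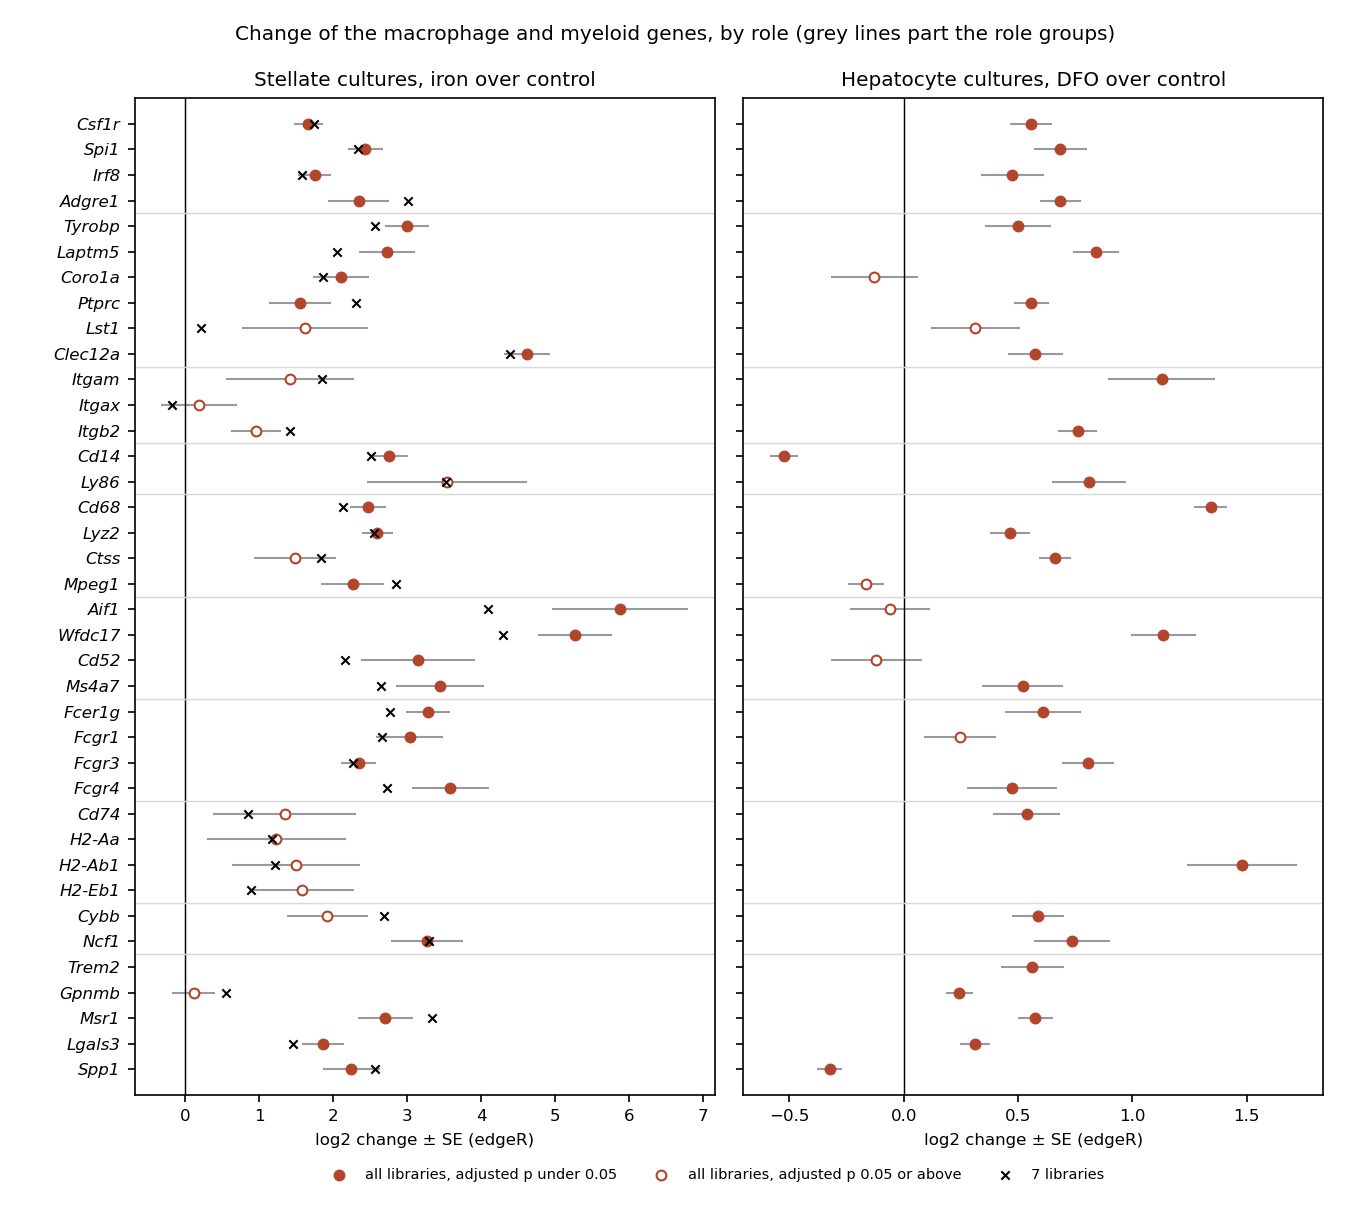
Log2 change of each member on the x axis, with its SE, iron over control in stellate cultures (left, 5 libraries each) and DFO over control in hepatocyte cultures (right, 6 each), ordered by role; the x axes differ in scale. Filled points have an edgeR adjusted p under 0.05, crosses give the 7 stellate libraries, and genes with no point were too low to test. Most stellate changes lie between 1 and 4, and most hepatocyte changes between 0 and 1.

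The receptor and transcription factors that define the lineage all rose in iron-treated stellate cultures. Csf1r, the receptor for CSF1, had 78.3, 76.2, 59.7, 56.1 and 83.1 CPM in iron 1 to 5, against 19.9, 20.96, 27.2, 26.3 and 17.3 CPM in control 1 to 5. The groups did not overlap, and the change was 1.66 ± 0.20 (edgeR adjusted p = 0.000675). Spi1, which encodes PU.1 (ENSMUSG00000002111, chromosome 2, 91082390 to 91115756, mm10), had 33.7, 33.6, 42.5, 24.3 and 33.6 CPM in iron 1 to 5, against 6.64, 5.67, 6.78, 7.62 and 4.30 CPM in control 1 to 5. It also separated the groups without overlap, with a log2 change of 2.43 ± 0.23 (edgeR adjusted p = 0.000175). Adgre1, the F4/80 antigen of mature macrophages, had 24.4, 34.4, 10.4, 19.6 and 10.6 CPM in iron 1 to 5, against 3.37, 3.01, 6.70, 2.51 and 4.11 CPM in control 1 to 5. The Adgre1 change was 2.34 ± 0.42 (edgeR adjusted p = 0.00641); over the 7 libraries its change was 3.01 ± 0.20 (edgeR adjusted p = 1.34e-07). Irf8, a factor of the monocyte and macrophage branch, rose (log2 change 1.75 ± 0.22, edgeR adjusted p = 0.00099). The Csf1r locus overlaps Hmgxb3 on the opposite strand, and since the strand setting of the counting is not given, reads of the pair cannot be told apart.

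Of the adaptors and signalling proteins, 5 of 6 rose. Tyrobp, the adaptor that carries an activating motif for several myeloid receptors, had 104, 128, 198, 87.8 and 138 CPM in iron 1 to 5, against 17.1, 21.4, 9.32, 20.4 and 13.4 CPM in control 1 to 5. Every iron library was above every control library, with a log2 change of 3.00 ± 0.30 (edgeR adjusted p = 0.000224). Laptm5, a lysosomal membrane protein of blood cells, had 90.9, 89.03, 128, 67.8 and 278 CPM in iron 1 to 5, against 24.98, 16.6, 19.7, 20.6 and 16.9 CPM in control 1 to 5. Its highest value was in iron 5, and the change of 2.73 ± 0.38 (edgeR adjusted p = 0.00162) became 2.06 ± 0.14 (edgeR adjusted p = 1.97e-07) without the 3 libraries that stand apart. Clec12a, an inhibitory lectin receptor, had 27.6, 32.6, 38.3, 25.9 and 39.9 CPM in iron 1 to 5, against 1.05, 1.31, 1.14, 2.19 and 0.922 CPM in control 1 to 5, with no overlap. The Clec12a change was 4.62 ± 0.31 (edgeR adjusted p = 1.57e-05). Ptprc, the phosphatase CD45 found on all leukocytes, had 29.6, 41.9, 9.94, 26.1 and 18.2 CPM in iron 1 to 5, against 7.10, 6.54, 16.7, 6.40 and 6.26 CPM in control 1 to 5, and control 3 lay above iron 3. The change of 1.56 ± 0.42 (edgeR adjusted p = 0.0477) lost its call when any 1 of control 1, 2, 4 or 5 or iron 1, 2 or 4 was left out (edgeR adjusted p up to 0.125). Over the 7 libraries it was 2.31 ± 0.15 (edgeR adjusted p = 1.24e-07). Coro1a, an actin-binding protein, rose (log2 change 2.11 ± 0.38, edgeR adjusted p = 0.00719), but it overlaps Bola2 on the opposite strand, which held 16479 counts in these libraries against 1366 for Coro1a. Lst1 reached at most 4.68 CPM and did not pass the test over 10 libraries (log2 change 1.62 ± 0.85, edgeR adjusted p = 0.234) or over the 7 (log2 change 0.21 ± 0.46, edgeR adjusted p = 0.755).

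None of the 3 integrin genes passed the test over 10 libraries, although 1 had an unadjusted p under 0.05; limma on log2(FPKM + 1) and DESeq2's Wald test also called 0. Itgb2, the chain shared by the leukocyte integrins, was abundant in controls too, with 87.003, 99.3, 52.1, 62.05 and 24.7 CPM in iron 1 to 5, against 35.2, 32.7, 43.2, 33.8 and 22.4 CPM in control 1 to 5. The iron 5 library was within the control range, and the change of 0.96 ± 0.34 (edgeR adjusted p = 0.105) became 1.42 ± 0.16 (edgeR adjusted p = 1.78e-05) over the 7 libraries. Itgam, the partner chain in the complement receptor, had 4.48, 6.43, 3.60, 4.94 and 0 CPM in iron 1 to 5, against 1.05, 2.35, 1.39, 2.12 and 0.384 CPM in control 1 to 5, with 0 in iron 5. It was called without iron 5 (lowest edgeR adjusted p when leaving out 1 library 0.0258) and over the 7 libraries (log2 change 1.84 ± 0.40, edgeR adjusted p = 0.00287). Itgax, the chain typical of dendritic cells and some tissue macrophages, had 2.87, 3.51, 2.29, 1.11 and 8.67 CPM in iron 1 to 5, against 2.66, 2.88, 4.50, 3.76 and 2.38 CPM in control 1 to 5. Its groups overlapped, and its log2 change of 0.19 ± 0.51 turned to -0.18 over the 7 libraries and to -0.38 without iron 5, called in none of them.

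Both LPS-sensing members were higher with iron. Cd14, the co-receptor that hands LPS to the toll-like receptor complex, had 39.2, 46.7, 43.6, 39.998 and 50.7 CPM in iron 1 to 5, against 9.11, 6.89, 3.35, 6.93 and 6.22 CPM in control 1 to 5. The Cd14 change was 2.75 ± 0.26 (edgeR adjusted p = 0.00017). Ly86, which binds the receptor Cd180, had 6.80, 9.66, 8.43, 4.16 and 0 CPM in iron 1 to 5, against 0.432, 1.00, 0, 0.766 and 0.230 CPM in control 1 to 5. In it 4 iron libraries stood above all controls and iron 5 was at 0. It was not called over 10 libraries (log2 change 3.53 ± 1.08, edgeR adjusted p = 0.0745) but was called without iron 5 (edgeR adjusted p = 0.00201) and over the 7 (log2 change 3.53 ± 0.38, edgeR adjusted p = 1.04e-05). Of 6 other genes of the toll-like receptor complex, 0 rose and 1 fell over 10 libraries by edgeR, with 0 higher and 3 lower at an unadjusted p under 0.05, and 1 rose and 4 fell over the 7. Lbp, the serum protein that loads LPS on Cd14, averaged 6.94 ± 1.97 CPM in iron and 26.7 ± 2.44 CPM in control libraries and fell (log2 change -1.94 ± 0.23, edgeR adjusted p = 0.000691).

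Among lysosomal and lytic proteins, Lyz2, lysozyme (ENSMUSG00000069516, chromosome 10, 117277331 to 117282321, mm10), had the highest FPKM of all members in both stellate groups, with means of 718.2 FPKM in iron and 117.6 FPKM in control cultures. Its libraries had 976, 1158, 942, 792 and 808 CPM in iron 1 to 5, against 176, 183, 109.7, 178 and 126 CPM in control 1 to 5. The lowest iron library was above 4 times the highest control, and the change was 2.60 ± 0.21 (edgeR adjusted p = 7.55e-05). Cd68, a lysosomal glycoprotein, had 162, 172, 246, 163 and 315 CPM in iron 1 to 5, against 47.8, 36.4, 41.5, 36.7 and 29.3 CPM in control 1 to 5. The Cd68 change was 2.46 ± 0.24 (edgeR adjusted p = 0.000213). Mpeg1, a pore-forming protein of phagosomes, rose (log2 change 2.26 ± 0.43, edgeR adjusted p = 0.00916, and over the 7 libraries 2.85 ± 0.22, edgeR adjusted p = 5.15e-07), and its iron values spread from 51.6 CPM in iron 5 to 286.8 CPM in iron 2. Ctss, the protease that trims Cd74 during MHC class II loading, had 139.8, 188, 117, 118 and 8.49 CPM in iron 1 to 5, against 44.3, 42.4, 38.3, 45.3 and 34.2 CPM in control 1 to 5. Iron 5 lay below every control. Ctss was not called over 10 libraries (log2 change 1.48 ± 0.55, edgeR adjusted p = 0.119), and its change was 1.84 ± 0.14 (edgeR adjusted p = 4.92e-07) over the 7.

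All 4 other myeloid markers rose. Aif1, the calcium-binding protein Iba1, had 2.93, 2.66, 9.64, 4.42 and 28.8 CPM in iron 1 to 5, against 0.247, 0.131, 0, 0.279 and 0.0768 CPM in control 1 to 5. The 5 control libraries held 21 counts in all and the 5 iron libraries 757, so its change of 5.87 ± 0.92 (edgeR adjusted p = 0.00337) rests on few control reads. It was 4.87 without iron 5 and a log2 change of 4.09 ± 0.40 (edgeR adjusted p = 4.15e-06) over the 7. Wfdc17, a small secreted protein of activated macrophages, had 37.2, 42.3, 99.3, 33.6 and 118 CPM in iron 1 to 5, against 1.91, 2.31, 0.736, 2.09 and 1.38 CPM in control 1 to 5. The Wfdc17 change was 5.27 ± 0.50 (edgeR adjusted p = 0.00017), and over the 7 libraries 4.29 ± 0.15, edgeR adjusted p = 6.22e-10. Iron 3 and iron 5 had the highest values of both genes. Ms4a7, a membrane protein of resident macrophages, rose (log2 change 3.45 ± 0.59, edgeR adjusted p = 0.00542, and over the 7 libraries 2.65 ± 0.39, edgeR adjusted p = 0.000157). Cd52, a surface glycopeptide of leukocytes that overlaps Crybg2 on the opposite strand (28 counts, against 1440 for Cd52), rose (log2 change 3.14 ± 0.77, edgeR adjusted p = 0.0315, and over the 7 libraries 2.16 ± 0.33, edgeR adjusted p = 0.000189), and lost its call when any 1 of control 1, 2 or 5 or iron 2, 3 or 4 was left out (edgeR adjusted p up to 0.0958).

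**Figure D2:**
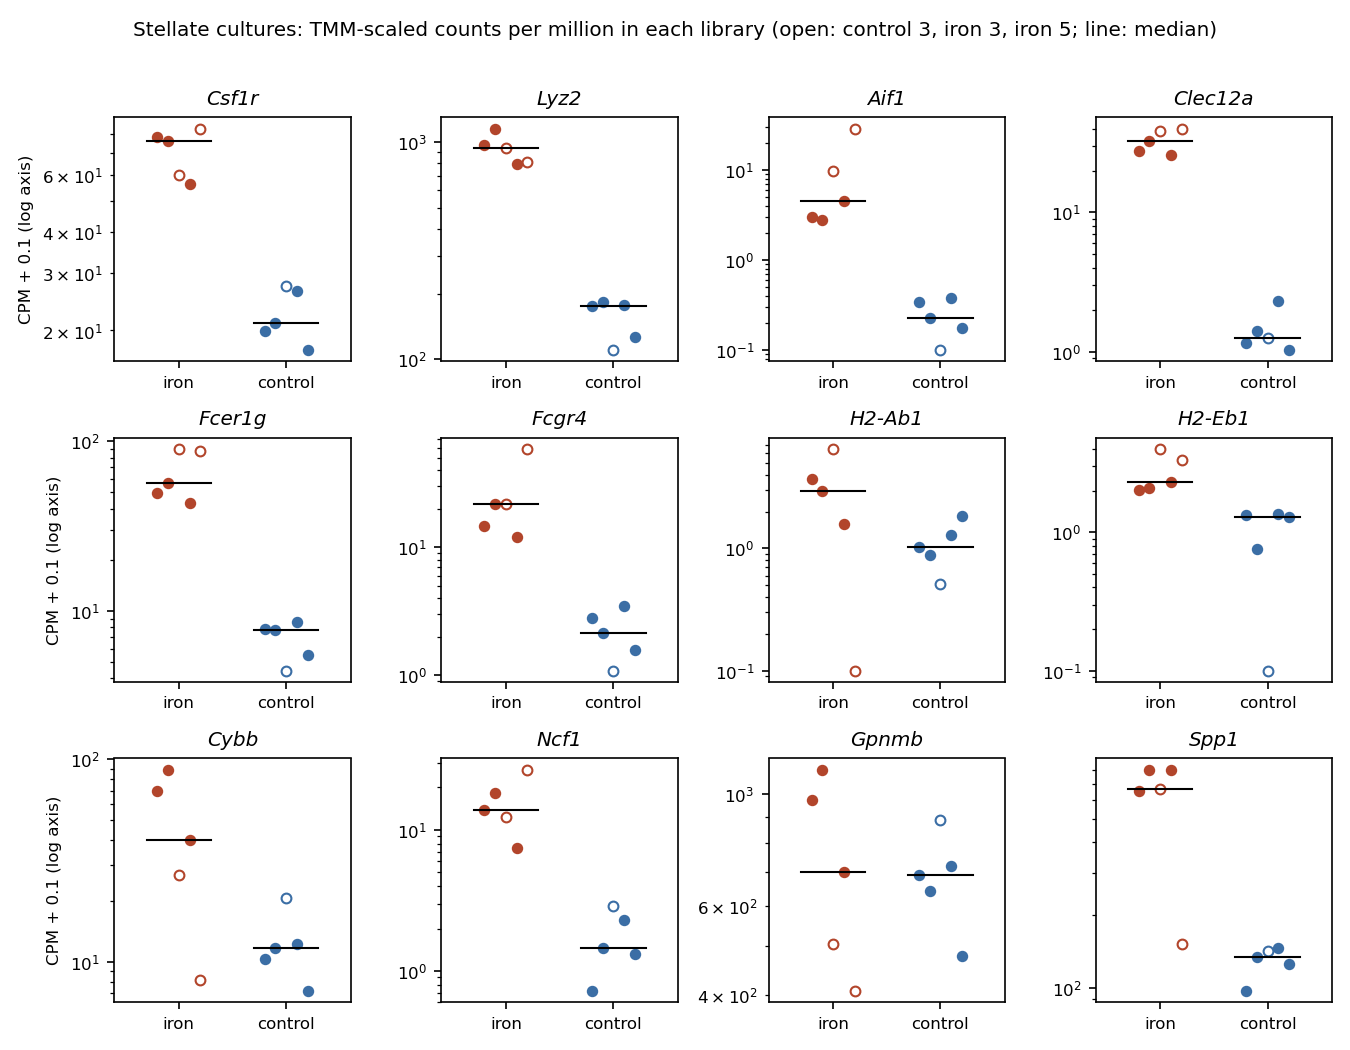
CPM + 0.1 on log axes for 12 members in 5 iron and 5 control stellate libraries, with control 3, iron 3 and iron 5 as open points and a line at each median. The Fc receptor genes Fcer1g and Fcgr4 separate the groups in all libraries, Cybb does so without iron 5, and H2-Ab1 and Gpnmb overlap.

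All 4 Fc receptor genes rose, and in all 4 the iron libraries lay above the controls. Fcer1g, the signalling chain shared by activating Fc receptors (ENSMUSG00000058715, chromosome 1, 171229572 to 171234365, mm10), had 49.4, 56.4, 89.7, 42.99 and 87.8 CPM in iron 1 to 5, against 7.75, 7.58, 4.33, 8.46 and 5.41 CPM in control 1 to 5. Its change was 3.28 ± 0.30 (edgeR adjusted p = 0.000139), and 2.76 ± 0.14 (edgeR adjusted p = 1.62e-08) over the 7 libraries. Fcgr3, a low-affinity activating receptor for IgG, had 68.3, 78.8, 69.8, 53.4 and 50.7 CPM in iron 1 to 5, against 14.1, 16.7, 7.60, 12.01 and 12.7 CPM in control 1 to 5. The Fcgr3 change was 2.34 ± 0.24 (edgeR adjusted p = 0.000268). Fcgr4, another activating receptor (ENSMUSG00000059089, chromosome 1, 171018920 to 171029761, mm10), had 14.5, 21.5, 21.6, 11.9 and 58.4 CPM in iron 1 to 5, against 2.72, 2.05, 0.981, 3.34 and 1.46 CPM in control 1 to 5. Iron 5 was the highest by a wide gap. The Fcgr4 change was 3.58 ± 0.52 (edgeR adjusted p = 0.00216), and 2.73 ± 0.25 (edgeR adjusted p = 2.68e-06) over the 7. Fcgr1, the high-affinity IgG receptor, had 4.93, 6.85, 8.96, 3.77 and 9.03 CPM in iron 1 to 5, against 0.340, 0.828, 0.736, 1.39 and 0.768 CPM in control 1 to 5. The Fcgr1 change was 3.03 ± 0.45 (edgeR adjusted p = 0.00258). Of 9 other genes of Fc receptor and tyrosine-motif signalling, 5 rose and 0 fell, and all 9 rose over the 7 libraries. The inhibitory receptor Fcgr2b averaged 30.4 ± 5.48 CPM in iron and 3.21 ± 1.27 CPM in control libraries (log2 change 3.25 ± 0.34, edgeR adjusted p = 0.000315). The exchange factor Vav1 averaged 18.7 ± 6.07 CPM in iron and 2.78 ± 0.676 CPM in control libraries (log2 change 2.74 ± 0.30, edgeR adjusted p = 0.000481). Fcgr3, Fcgr2b and Fcgr4 are close relatives within 1 gene cluster, and reads from shared sequence could have been split between them by the counting, which is not given.

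The 4 antigen presentation genes were low in both groups, and 0 of 4 rose over 10 libraries, with 1 at an unadjusted p under 0.05, 1 called by DESeq2's Wald test, and 1 of the 3 genes tested by limma on log2(FPKM + 1). H2-Ab1, the main MHC class II beta chain (ENSMUSG00000073421, chromosome 17, 34257689 to 34269419, mm10), had 3.60, 2.84, 6.38, 1.496 and 0 CPM in iron 1 to 5, against 0.926, 0.785, 0.409, 1.18 and 1.73 CPM in control 1 to 5. H2-Aa, its alpha partner (ENSMUSG00000036594, chromosome 17, 34282744 to 34287823, mm10), had 1.81, 1.77, 1.95, 0.780 and 0 CPM in iron 1 to 5, against 0.710, 0.872, 0, 0.348 and 0.730 CPM in control 1 to 5. In both, iron 5 was at 0 and the groups overlapped. H2-Eb1, the beta chain of the other class II dimer (ENSMUSG00000060586, chromosome 17, 34305867 to 34316674, mm10), had 1.94, 1.99, 3.90, 2.21 and 3.25 CPM in iron 1 to 5, against 1.24, 0.654, 0, 1.25 and 1.19 CPM in control 1 to 5. It was the only 1 of the 4 with all iron libraries above the controls, at a log2 change of 1.58 ± 0.70 (edgeR adjusted p = 0.173). Cd74, the invariant chain, had 0.938, 1.46, 2.83, 0.520 and 0 CPM in iron 1 to 5, against 0.463, 0.785, 0, 0.626 and 0.346 CPM in control 1 to 5, also at 0 in iron 5. Over the 7 libraries H2-Ab1 rose (log2 change 1.22 ± 0.34, edgeR adjusted p = 0.0134). So did H2-Aa (log2 change 1.17 ± 0.40, edgeR adjusted p = 0.0365) and H2-Eb1 (log2 change 0.89 ± 0.30, edgeR adjusted p = 0.0306). Cd74 did not pass there (log2 change 0.85 ± 0.44, edgeR adjusted p = 0.157). The median log2 change over the 7 libraries was 1.03 over the 4 genes, against 2.31 over all tested members. Of 8 genes of class II loading and control, 4 could be tested and 2 rose (3 over the 7 libraries). H2-DMb1, a chain of the peptide exchanger, averaged 12.8 ± 7.10 CPM in iron and 3.66 ± 0.365 CPM in control libraries (log2 change 1.80 ± 0.35, edgeR adjusted p = 0.0111, and over the 7 libraries 1.18 ± 0.14, edgeR adjusted p = 2.80e-05). The surface protein Cd83 averaged 5.97 ± 0.423 CPM in iron and 0.707 ± 0.610 CPM in control libraries (log2 change 3.12 ± 0.63, edgeR adjusted p = 0.0135). Ciita, the class II transactivator, was at 0.107 CPM or less in iron libraries and 1.23 CPM or less in controls.

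Both phagocyte oxidase members were higher with iron, and 1 was called. Ncf1, the organising cytosolic subunit (ENSMUSG00000015950, chromosome 5, 134220053 to 134229625, mm10), had 13.8, 18.03, 12.3, 7.28 and 26.6 CPM in iron 1 to 5, against 0.618, 1.35, 2.78, 2.19 and 1.23 CPM in control 1 to 5. The groups did not overlap, with a log2 change of 3.27 ± 0.48 (edgeR adjusted p = 0.00235); Gtf2ird2 overlaps it on the opposite strand. Cybb, the catalytic membrane subunit (ENSMUSG00000015340, chromosome X, 9435252 to 9487771, mm10), had 69.8, 88.9, 26.7, 39.7 and 8.04 CPM in iron 1 to 5, against 10.2, 11.6, 20.7, 12.2 and 7.07 CPM in control 1 to 5. Iron 5 was within the control range and control 3 was the highest control. The change was 1.92 ± 0.55 (edgeR adjusted p = 0.0589), and Cybb was called without iron 5 (edgeR adjusted p = 0.00375) and over the 7 libraries (log2 change 2.69 ± 0.23, edgeR adjusted p = 1.43e-06). Of the other 4 subunits, 3 rose (all 4 over the 7 libraries). The GTPase Rac2 averaged 41.6 ± 17.9 CPM in iron and 6.55 ± 1.09 CPM in control libraries (log2 change 2.67 ± 0.31, edgeR adjusted p = 0.000581). Ncf4 averaged 6.42 ± 1.30 CPM in iron and 1.25 ± 0.571 CPM in control libraries (log2 change 2.36 ± 0.43, edgeR adjusted p = 0.00719). Cyba, the partner of Cybb, was not called over 10 libraries (log2 change 1.54 ± 0.47, edgeR adjusted p = 0.0722, and over the 7 libraries 0.42 ± 0.07, edgeR adjusted p = 0.00021).

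The lipid-associated genes divided. Spp1, osteopontin, a secreted phosphoprotein (ENSMUSG00000029304, chromosome 5, 104435118 to 104441050, mm10), had 650.1, 799.5, 663, 794 and 152 CPM in iron 1 to 5, against 96.9, 135, 142, 146 and 125 CPM in control 1 to 5. All iron libraries lay above the controls, though iron 5 only just, and the change was 2.25 ± 0.38 (edgeR adjusted p = 0.00504). Msr1, a scavenger receptor for modified lipoproteins (ENSMUSG00000025044, chromosome 8, 39581685 to 39642673, mm10), had 97.98, 109.9, 68.4, 69.6 and 43.99 CPM in iron 1 to 5, against 8.86, 10.1, 23.5, 10.4 and 7.33 CPM in control 1 to 5. The Msr1 change was 2.70 ± 0.37 (edgeR adjusted p = 0.00153), and over the 7 libraries 3.33 ± 0.15, edgeR adjusted p = 7.32e-09. Lgals3, a galectin (ENSMUSG00000050335, chromosome 14, 47367751 to 47386160, mm10), had 661, 703, 1078, 515 and 719.7 CPM in iron 1 to 5, against 259.8, 234, 103, 229 and 186 CPM in control 1 to 5. The Lgals3 change was 1.86 ± 0.28 (edgeR adjusted p = 0.00279). For these 3 every iron library lay above every control. Gpnmb, a glycoprotein of lysosome-rich macrophages (ENSMUSG00000029816, chromosome 6, 49036546 to 49070929, mm10), was already among the highest members in controls, with 971, 1115, 505, 701 and 407 CPM in iron 1 to 5, against 689, 643, 887, 719 and 479 CPM in control 1 to 5. The groups overlapped on both sides and the change was 0.11 ± 0.29 (edgeR adjusted p = 0.822), and 0.55 ± 0.15 (edgeR adjusted p = 0.0119) over the 7. Trem2, the lipid receptor that signals through Tyrobp (ENSMUSG00000023992, chromosome 17, 48346401 to 48354147, mm10), was at most 0.390 CPM in iron and 0.154 CPM in control libraries, 20 and 9 counts in all, and was too low to test. Of 13 other genes of lipid-associated macrophages 2 rose (8 over the 7 libraries, with 2 lower). The lipid carrier Apoe averaged 1499 ± 869 CPM in iron and 169 ± 48.8 CPM in control libraries (log2 change 3.15 ± 0.41, edgeR adjusted p = 0.00118, and over the 7 libraries 2.26 ± 0.08, edgeR adjusted p = 8.12e-10). The protease Ctsb averaged 2379 ± 267 CPM in iron and 1174 ± 98.7 CPM in control libraries (log2 change 1.02 ± 0.17, edgeR adjusted p = 0.00445).

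The members' levels in control stellate cultures had their own order. By mean FPKM, Lyz2 (118 ± 29.2), Lgals3 (109 ± 35.9), Gpnmb (104, with 75.3 to 124 over libraries) and Spp1 (77.8 ± 11.4) led there (SD, n = 5), and Aif1 and Trem2 were the lowest. Lyz2, Lgals3 and Gpnmb differed by less than their spread. To set members against the myeloid content of a library, each was divided by the geometric mean of the other genes among Csf1r, Spi1, Adgre1, Ptprc, Itgb2, Laptm5 and Tyrobp in that library (after adding 0.1 CPM), as a description with no test. On this log2 scale Wfdc17 averaged 0.20 ± 0.96 in iron and -2.88 ± 0.74 in control libraries. Clec12a averaged -0.63 ± 0.38 in iron and -3.17 ± 0.45 in control libraries. Aif1 averaged -2.97 ± 1.56 in iron and -5.79 ± 0.87 in control libraries, and for all 3 the groups did not overlap. Over the 7 libraries the groups stood closer for Wfdc17 (-0.50 ± 0.13 in iron and -2.55 ± 0.21 in control libraries). They did so too for Aif1 (-3.99 ± 0.67 in iron and -5.43 ± 0.37 in control libraries), both still without overlap. Gpnmb averaged 3.78 ± 0.46 in iron and 5.77 ± 0.12 in control libraries. Itgax averaged -4.03 ± 0.99 in iron and -1.92 ± 0.21 in control libraries. Itgb2 averaged 0.27 ± 0.78 in iron and 1.65 ± 0.17 in control libraries, and all 3 were lower in every iron library. Over the 7 libraries all 4 antigen presentation genes were lower on this scale in every iron library. They were lower by 1.53 for Cd74, 1.19 for H2-Aa, 1.09 for H2-Ab1 and 1.29 for H2-Eb1, whereas over 10 libraries their groups overlapped. This was not particular to them, as Csf1r, Irf8, Lst1, Itgax, Itgb2, Ctss, Trem2, Gpnmb and Lgals3 were also lower in every iron library of the 7. Trem2 averaged 0.106 CPM in iron and 0.082 CPM in control libraries of the 7. That is near the 0.1 CPM added, so its ratio mostly follows the genes divided by. Adgre1, Tyrobp, Clec12a, Ly86, Lyz2, Mpeg1, Aif1, Wfdc17, Fcer1g and Msr1 were higher in every iron library of the 7, and the other members overlapped. The members divided by are themselves higher with iron, so these ratios describe composition within the set.

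**Figure D3:**
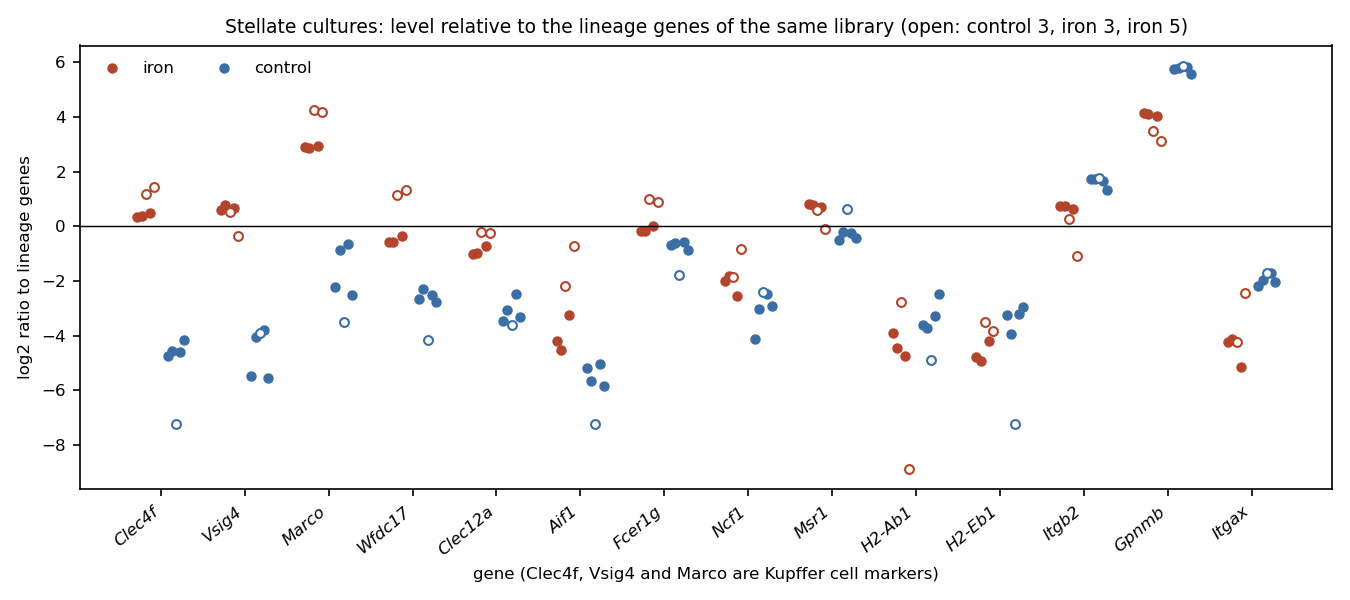
Log2 ratio of 11 members and 3 Kupffer cell markers to the geometric mean of the lineage genes of the same library, for 5 iron and 5 control stellate libraries, open points being control 3, iron 3 and iron 5. The iron libraries lie above the controls for Clec4f, Vsig4, Marco, Wfdc17, Clec12a, Aif1 and Fcer1g and below them for Itgb2, Gpnmb and Itgax.

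Markers of other cells moved with these genes. Of 10 Kupffer cell markers, 7 of 8 tested rose over 10 libraries and all 9 tested rose over the 7. The summed level was 1130 to 2226 CPM in iron libraries and 11.1 to 22.4 CPM in control libraries. Clec4f, a lectin made by Kupffer cells, averaged 88.9 ± 26.8 CPM in iron and 0.328 ± 0.187 CPM in control libraries (log2 change 7.97 ± 0.51, edgeR adjusted p = 1.23e-05). Cd5l averaged 595 ± 109.5 CPM in iron and 5.69 ± 1.99 CPM in control libraries (log2 change 6.71 ± 0.34, edgeR adjusted p = 6.15e-06). C1qc averaged 99.2 ± 17.2 CPM in iron and 1.62 ± 0.678 CPM in control libraries (log2 change 5.95 ± 0.34, edgeR adjusted p = 6.15e-06). Clec4f was at most 0.461 CPM in any control. Control cultures held few Kupffer cell marker reads while Lyz2, Gpnmb, Ctss and Itgb2 were at 109.7, 479.0, 34.2 and 22.4 CPM or more in every control library. Not all members were abundant there. The highest control values of Trem2, Aif1, Ms4a7, Fcgr1 and Clec12a were 0.154, 0.279, 1.23, 1.39 and 2.19 CPM. Sinusoidal endothelial markers summed to 127.5 to 238.9 CPM with iron and 43.4 to 58.9 CPM in controls. Of 8, 4 rose, led by Pecam1 (log2 change 1.76 ± 0.20, edgeR adjusted p = 0.000488). Stellate markers summed to 2264 to 5498 CPM with iron and 7174 to 11389 CPM in controls. Of 10, 4 fell, among them Reln (log2 change -2.54 ± 0.40, edgeR adjusted p = 0.00324, and over the 7 libraries -1.82 ± 0.12, edgeR adjusted p = 1.62e-07), Pdgfrb (log2 change -0.92 ± 0.19, edgeR adjusted p = 0.0132) and Lrat, the enzyme of vitamin A storage (log2 change -3.02 ± 0.71, edgeR adjusted p = 0.0275, and over the 7 libraries -2.35 ± 0.21, edgeR adjusted p = 1.67e-06). Hepatocyte markers summed to 54.4 to 132.7 CPM with iron and 160.2 to 273.9 CPM in controls, and 1 of 8 fell, Apob (log2 change -2.87 ± 0.45, edgeR adjusted p = 0.00356). Cycling genes summed to 487.3 to 601.6 CPM with iron and 262.7 to 391.8 CPM in controls. Of 5, 2 rose, Birc5 (log2 change 2.28 ± 0.46, edgeR adjusted p = 0.0131, and over the 7 libraries 1.39 ± 0.13, edgeR adjusted p = 3.14e-06) and Ccnb1 (log2 change 0.94 ± 0.22, edgeR adjusted p = 0.0262). Of the 4 tested cholangiocyte markers 2 rose, Krt19 (log2 change 2.56 ± 0.49, edgeR adjusted p = 0.0102, and over the 7 libraries 1.46 ± 0.25, edgeR adjusted p = 0.00042) and Spp1, itself a member. Over the 7 libraries 8 of 8 endothelial and 5 of 5 cycling markers rose, and 9 of 10 stellate and 8 of 8 hepatocyte markers fell.

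Markers of other blood cells differed by list in stellate cultures. All 7 T and NK cell and all 5 B cell markers stayed under 1 CPM in every library, with Cd3d, Cd3e and Ms4a1 at 0 counts throughout, and 6 of 7 neutrophil markers did so. Flt3, Cd209a and Siglech, markers of dendritic cells, were at 0 in all 10 libraries, and of the dendritic list only Zbtb46 could be tested (13.7 to 22.3 CPM with iron, 15.96 to 22.8 CPM in controls). The 7 monocyte markers summed to 87.0 to 164.7 CPM with iron and 27.5 to 115.4 CPM in controls, overlapping. Most of this was Plac8, at 86.2 to 161.9 CPM with iron and 27.5 to 113.8 CPM in controls (log2 change 0.39 ± 0.33, edgeR adjusted p = 0.464). Cx3cr1, the fractalkine receptor, was at 0.363 to 10.6 CPM with iron and at 0.806 CPM or less in controls (log2 change 2.88 ± 1.14, edgeR adjusted p = 0.133, and over the 7 libraries 0.17 ± 0.58, edgeR adjusted p = 0.854). By edgeR 0 of the 3 tested monocyte markers passed, with 1 higher at an unadjusted p under 0.05, and DESeq2's Wald test called 1 higher of 7, limma on log2(FPKM + 1) 0 of 2. Ccr2 and Ly6c2, which mark inflammatory monocytes, were at 0.249 CPM or less. Csf1, the main ligand of the CSF1 receptor, was high in both groups at 2230.0 ± 541 CPM in iron and 3517 ± 602 CPM in control libraries and did not pass the test over 10 libraries (log2 change -0.66 ± 0.23, edgeR adjusted p = 0.103, and over the 7 libraries -0.32 ± 0.06, edgeR adjusted p = 0.000794), and of 5 tested genes in that list 1 rose, Csf3r, the G-CSF receptor (log2 change 2.81 ± 0.59, edgeR adjusted p = 0.0159). Of 9 other myeloid transcription factors 4 rose, among them Ikzf1 (log2 change 2.26 ± 0.38, edgeR adjusted p = 0.00458) and Irf5 (log2 change 1.45 ± 0.25, edgeR adjusted p = 0.00556). Over the 7 libraries 7 of these 9 factors rose, and in the CSF1 receptor list 3 rose and 2 fell. The part of these other cells in the members' changes was not tested.

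The 3 libraries that stand apart also differed from the rest of their groups in the members. Over the 35 members with a mean of at least 1 CPM in iron 1, 2 and 4, the log2 ratio of iron 3 to that mean had a Spearman correlation with exonic length of -0.591, and that of iron 5 -0.292. Over 30 members, control 3 against the other controls gave 0.699. These correlations are across genes that share libraries and are descriptions only. Iron 5 was more than 2-fold below the other iron libraries in 12 members and more than 2-fold above in 8. Its low members included Ly86, Itgam and Ctss, and its high ones Laptm5, Aif1 and Fcgr4. The part of library quality in these departures was not tested.

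**Figure D4:**
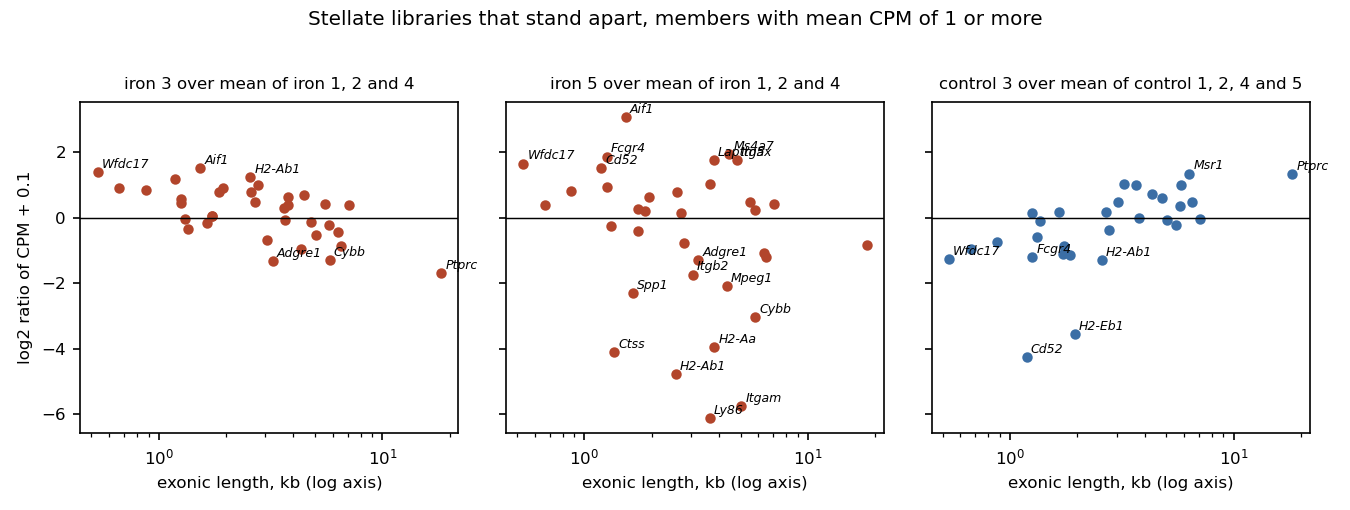
Log2 ratio of CPM + 0.1 in iron 3, iron 5 and control 3 to the mean of the remaining libraries of the same group, against exonic length in kb on a log axis, 1 point per member with a mean of at least 1 CPM. In iron 3 long members such as Ptprc lie low and short ones such as Wfdc17 high, in control 3 the other way round, and in iron 5 several members lie far below 0.

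With DFO, 27 of 35 testable members rose in hepatocyte cultures and 2 fell, where 27.9% of 15660 genes rose and 30.1% fell. The counts from other gene lists in hepatocyte cultures below are to be read beside these shares. The median log2 change was 0.56 over the members and 0.00 over all genes. In 19 members every DFO library lay above every control, which held for 16.6% of all genes. In 2, Cd14 and Spp1, every DFO library lay below every control, and the share of all genes that did so was not computed. Itgax, H2-Aa and H2-Eb1 were too low to test, at 0.894 CPM or less in any library. By mean FPKM, Spp1 (1046 with DFO and 1345 in controls) and Lgals3 (228.1 with DFO and 188.9 in controls) led in these cultures, and Csf1r was at 2.38 FPKM with DFO and 1.67 FPKM in controls.

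The lineage genes all rose. Csf1r averaged 13.96 ± 1.98 CPM in DFO and 9.51 ± 0.931 CPM in control libraries. The Csf1r change was 0.56 ± 0.09 (edgeR adjusted p = 5.80e-05). Adgre1 was at 5.46, 5.63 and 6.73 CPM (lowest, median and highest) in DFO libraries, against 2.95, 3.60 and 4.13 CPM in control libraries. The Adgre1 change was 0.68 ± 0.09 (edgeR adjusted p = 4.84e-06). Neither Csf1r nor Adgre1 overlapped between groups. Hmgxb3, on the opposite strand of Csf1r, held 21183 counts in hepatocyte libraries, against 4929 for Csf1r, so reads of the pair cannot be told apart. Spi1 (log2 change 0.68 ± 0.12, edgeR adjusted p = 7.85e-05) and Irf8 (log2 change 0.47 ± 0.14, edgeR adjusted p = 0.00695) rose as well. Laptm5 was at 9.23, 11.4 and 12.7 CPM in DFO libraries, against 5.26, 6.30 and 7.06 CPM in control libraries. The Laptm5 change was 0.84 ± 0.10 (edgeR adjusted p = 1.97e-06), the largest change among the adaptors. Tyrobp was at 8.61, 10.5 and 17.4 CPM in DFO libraries, against 6.23, 8.29 and 9.22 CPM in control libraries, overlapping. The Tyrobp change was 0.50 ± 0.14 (edgeR adjusted p = 0.00662). Ptprc (log2 change 0.56 ± 0.08, edgeR adjusted p = 6.80e-06) and Clec12a (log2 change 0.58 ± 0.12, edgeR adjusted p = 0.000549) rose, and Lst1 did not pass (log2 change 0.31 ± 0.20, edgeR adjusted p = 0.181). Coro1a was at 1.18, 1.72 and 2.43 CPM in DFO libraries, against 1.21, 1.94 and 2.55 CPM in control libraries, overlapping. The Coro1a change was -0.13 ± 0.19 (edgeR adjusted p = 0.585). Bola2 on the opposite strand held 21297 counts, against 763 for Coro1a, and their reads cannot be told apart either. Of the integrins, Itgb2 was at 9.60, 11.04 and 12.9 CPM in DFO libraries, against 6.10, 6.46 and 7.82 CPM in control libraries. The Itgb2 change was 0.76 ± 0.09 (edgeR adjusted p = 7.39e-07). Itgam, at 0.545 to 1.21 CPM with DFO and 0.318 to 0.507 CPM in controls, rose (log2 change 1.13 ± 0.23, edgeR adjusted p = 0.000531).

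Cd68 had the smallest p among the members in hepatocyte cultures. It was at 72.2, 78.9 and 98.6 CPM in DFO libraries, against 28.6, 31.8 and 34.6 CPM in control libraries, with no overlap. The Cd68 change was 1.34 ± 0.07 (edgeR adjusted p = 9.15e-11). Lyz2 was at 45.3, 53.6 and 69.7 CPM in DFO libraries, against 36.1, 40.03 and 42.3 CPM in control libraries. The Lyz2 change was 0.46 ± 0.09 (edgeR adjusted p = 0.000202). Ctss rose too (log2 change 0.66 ± 0.07, edgeR adjusted p = 3.16e-07). Mpeg1 was at 49.5, 58.9 and 66.1 CPM in DFO libraries, against 59.6, 64.9 and 77.4 CPM in control libraries, overlapping. The Mpeg1 change was -0.17 ± 0.08 (edgeR adjusted p = 0.0762), and it was called lower without control 2, DFO 2 or DFO 3 (lowest edgeR adjusted p 0.0422). Wfdc17 was at 6.23, 7.88 and 12.9 CPM in DFO libraries, against 3.44, 3.84 and 4.08 CPM in control libraries. The Wfdc17 change was 1.14 ± 0.14 (edgeR adjusted p = 3.26e-06), and Ms4a7 rose (log2 change 0.52 ± 0.18, edgeR adjusted p = 0.0191), a call lost without control 4 or control 5 (edgeR adjusted p up to 0.0504). Aif1 was at 0.894, 1.26 and 1.74 CPM in DFO libraries, against 1.09, 1.23 and 1.85 CPM in control libraries, overlapping. The Aif1 change was -0.06 ± 0.17 (edgeR adjusted p = 0.792). Cd52 was at 0.578, 0.705 and 0.898 CPM in DFO libraries, against 0.510, 0.775 and 1.08 CPM in control libraries, overlapping. The Cd52 change was -0.12 ± 0.20 (edgeR adjusted p = 0.626), and Crybg2 on the opposite strand held 325 counts, against 314 for Cd52, so reads of the pair cannot be told apart.

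**Figure D5:**
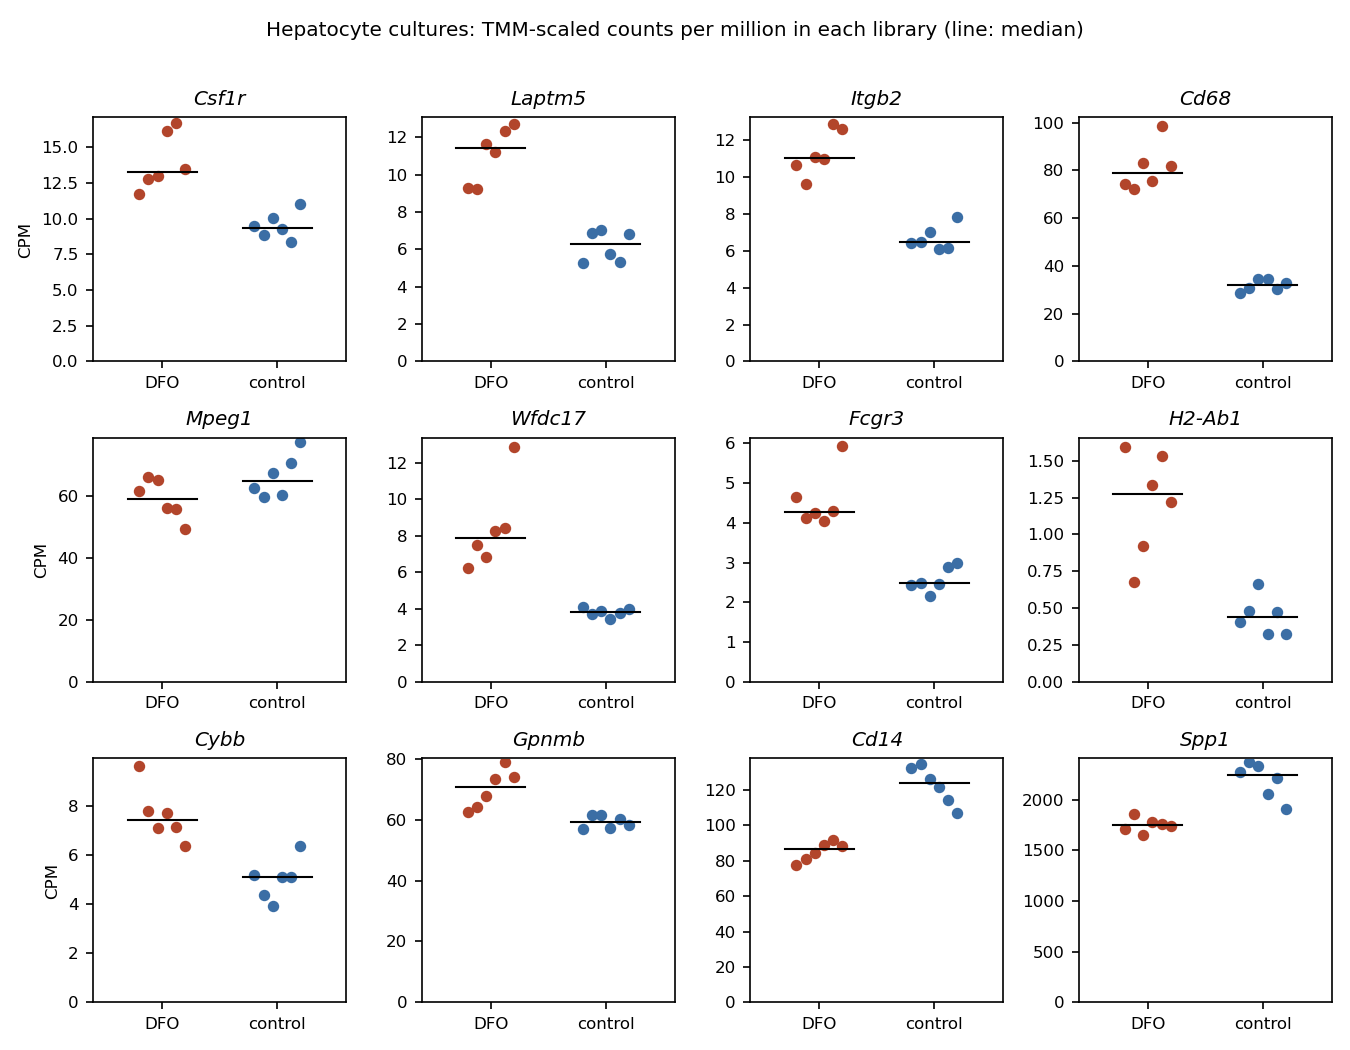
CPM on linear axes starting at 0 for 12 members in 6 DFO and 6 control hepatocyte libraries, with a line at each median. Cd68 and Wfdc17 are higher with DFO without overlap, Cd14 and Spp1 are lower without overlap, and Mpeg1 overlaps.

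Cd14 fell with DFO. It was at 77.4, 86.3 and 91.7 CPM in DFO libraries, against 107, 124 and 135 CPM in control libraries, with no overlap. The Cd14 change was -0.52 ± 0.06 (edgeR adjusted p = 1.20e-06). Ly86 rose (log2 change 0.81 ± 0.16, edgeR adjusted p = 0.000382). Around Cd14, 4 of 6 genes of the toll-like receptor complex rose and 1 fell, led by Lbp and Ly96. Lbp averaged 56.7 ± 3.47 CPM in DFO and 38.7 ± 2.67 CPM in control libraries (log2 change 0.55 ± 0.06, edgeR adjusted p = 2.51e-07). Ly96, the LPS-binding partner of Tlr4, averaged 11.9 ± 0.952 CPM in DFO and 8.52 ± 0.599 CPM in control libraries (log2 change 0.48 ± 0.07, edgeR adjusted p = 1.39e-05). Myd88, the adaptor downstream, fell (log2 change -0.29 ± 0.06, edgeR adjusted p = 0.000703).

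Among Fc receptors, 3 of 4 rose. Fcgr3 was at 4.06, 4.27 and 5.94 CPM in DFO libraries, against 2.15, 2.48 and 3.00 CPM in control libraries. The Fcgr3 change was 0.81 ± 0.11 (edgeR adjusted p = 1.11e-05), with no overlap. Fcer1g was at 1.82, 2.65 and 3.22 CPM in DFO libraries, against 1.25, 1.76 and 2.05 CPM in control libraries, overlapping. The Fcer1g change was 0.61 ± 0.17 (edgeR adjusted p = 0.00453). Fcgr1 was at 2.35, 3.41 and 4.20 CPM in DFO libraries, against 2.03, 2.81 and 3.57 CPM in control libraries, overlapping, and was not called (log2 change 0.25 ± 0.16, edgeR adjusted p = 0.197). Fcgr4 was at 0.844, 0.954 and 1.13 CPM in DFO libraries, against 0.430, 0.766 and 0.971 CPM in control libraries, overlapping. The Fcgr4 change was 0.48 ± 0.20 (edgeR adjusted p = 0.0479), and it lost its call on leaving out 1 library in 9 of 12 cases, all but control 1, control 3 and DFO 4 (edgeR adjusted p up to 0.123). Of 9 other signalling genes, 5 rose, led by Syk (log2 change 0.59 ± 0.08, edgeR adjusted p = 5.31e-06) and Lcp2 (log2 change 0.65 ± 0.11, edgeR adjusted p = 8.73e-05), and 3 fell, led by Plcg2 (log2 change -0.47 ± 0.09, edgeR adjusted p = 0.000145).

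Antigen presentation genes were low here as well. H2-Ab1 was at 0.675, 1.28 and 1.59 CPM in DFO libraries, against 0.322, 0.441 and 0.665 CPM in control libraries, without overlap, and rose (log2 change 1.48 ± 0.24, edgeR adjusted p = 4.73e-05) on 257 counts with DFO and 87 in controls. Cd74 was at 1.48, 2.13 and 2.39 CPM in DFO libraries, against 0.972, 1.40 and 1.56 CPM in control libraries, overlapping. The Cd74 change was 0.54 ± 0.15 (edgeR adjusted p = 0.00438). H2-Aa was at 0.191, 0.296 and 0.894 CPM in DFO libraries, against 0.0809, 0.203 and 0.256 CPM in control libraries, and H2-Eb1 at 0.0844, 0.320 and 0.563 CPM in DFO libraries, against 0.107, 0.223 and 0.445 CPM in control libraries, both overlapping and untested. In the loading list 3 of 4 tested genes rose, H2-DMa (log2 change 0.68 ± 0.10, edgeR adjusted p = 1.90e-05), Cd86 (log2 change 1.05 ± 0.16, edgeR adjusted p = 1.96e-05) and Cd83 (log2 change 1.36 ± 0.27, edgeR adjusted p = 0.000298), and Ciita was at 0.265 CPM or less. In the oxidase, Cybb was at 6.41, 7.44 and 9.67 CPM in DFO libraries, against 3.94, 5.14 and 6.39 CPM in control libraries. The Cybb change was 0.59 ± 0.11 (edgeR adjusted p = 0.000266), with no overlap. Ncf1 was at 1.61, 1.74 and 2.66 CPM in DFO libraries, against 0.942, 1.19 and 1.43 CPM in control libraries. The Ncf1 change was 0.74 ± 0.17 (edgeR adjusted p = 0.00106), with no overlap between groups. Gtf2ird2 on the opposite strand held 3834 counts, against 657 for Ncf1, so reads of the pair cannot be told apart. All 4 other subunits rose, among them Rac2 (log2 change 0.63 ± 0.14, edgeR adjusted p = 0.000878) and Cyba (log2 change 0.46 ± 0.12, edgeR adjusted p = 0.00389).

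The lipid-associated genes divided again. Trem2 was at 6.50, 7.97 and 11.8 CPM in DFO libraries, against 5.10, 5.47 and 7.67 CPM in control libraries, overlapping (mean 1.68 FPKM with DFO and 1.19 FPKM in controls, in stellate cultures 0.042 FPKM with iron and 0.012 FPKM in controls), and rose (log2 change 0.56 ± 0.14, edgeR adjusted p = 0.00217). Gpnmb was at 62.6, 70.6 and 78.9 CPM in DFO libraries, against 56.8, 59.1 and 61.6 CPM in control libraries. The Gpnmb change was 0.24 ± 0.06 (edgeR adjusted p = 0.00143). Msr1 was at 25.8, 28.9 and 31.2 CPM in DFO libraries, against 16.4, 19.1 and 21.8 CPM in control libraries. The Msr1 change was 0.58 ± 0.08 (edgeR adjusted p = 4.95e-06). Lgals3 was at 373, 427 and 507 CPM in DFO libraries, against 331, 345 and 362 CPM in control libraries. The Lgals3 change was 0.31 ± 0.07 (edgeR adjusted p = 0.000662). Gpnmb, Msr1 and Lgals3 separated the groups without overlap. Spp1 was at 1654, 1749.6 and 1856 CPM in DFO libraries, against 1909, 2242 and 2369 CPM in control libraries, lower with DFO in every library, and fell (log2 change -0.32 ± 0.05, edgeR adjusted p = 7.06e-05). Of 13 other genes of this kind 5 rose and 6 fell, with Ctsb (log2 change 0.52 ± 0.05, edgeR adjusted p = 1.66e-07) and Fabp4 (log2 change 1.43 ± 0.15, edgeR adjusted p = 2.43e-07) higher and Fabp5 (log2 change -0.91 ± 0.08, edgeR adjusted p = 2.71e-08) lower. Over all genes tested in these cultures, 27.9% rose and 30.1% fell.

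Kupffer cell markers in hepatocyte cultures also moved: 6 of 9 tested rose and 0 fell, and their sum was 131.6 to 193.2 CPM with DFO and 100.5 to 119.8 CPM in controls. Cd5l (log2 change 0.58 ± 0.08, edgeR adjusted p = 8.07e-06), Folr2 (log2 change 0.97 ± 0.14, edgeR adjusted p = 1.39e-05) and C1qc (log2 change 0.52 ± 0.08, edgeR adjusted p = 3.97e-05) led, and Clec4f did not pass (log2 change 0.16 ± 0.10, edgeR adjusted p = 0.202). Relative to the lineage genes of the same library, Cd68 averaged 3.24 ± 0.11 in DFO and 2.54 ± 0.09 in control libraries, higher in all DFO libraries. Cd14 averaged 3.32 ± 0.07 in DFO and 4.48 ± 0.20 in control libraries. Mpeg1 averaged 2.79 ± 0.29 in DFO and 3.59 ± 0.12 in control libraries. Spp1 averaged 7.68 ± 0.16 in DFO and 8.64 ± 0.19 in control libraries. Gpnmb averaged 3.03 ± 0.06 in DFO and 3.43 ± 0.10 in control libraries. Lgals3 averaged 5.645 ± 0.048 in DFO and 5.981 ± 0.135 in control libraries. Cd14, Mpeg1, Spp1, Gpnmb and Lgals3 were lower in every DFO library. So were the Kupffer cell markers Clec4f (-0.645 in DFO and -0.159 in control libraries) and Marco (0.667 in DFO and 1.11 in control libraries). Cd5l, C1qa and Vsig4 overlapped on this scale. Endothelial markers summed to 17.7 to 25.5 CPM with DFO and 11.5 to 15.2 CPM in controls. Of 8 tested, 2 rose and 0 fell, where 27.9% of all genes rose. The 2 were Stab2 (log2 change 1.36 ± 0.11, edgeR adjusted p = 1.08e-08) and Pecam1 (log2 change 0.93 ± 0.14, edgeR adjusted p = 1.95e-05). All 5 cycling genes fell, led by Ccna2 (log2 change -1.41 ± 0.06, edgeR adjusted p = 2.45e-12). Hepatocyte markers overlapped in sum (13251 to 14530 CPM with DFO, 11813 to 13321 CPM in controls), with 2 of 8 higher and 4 lower. Over all genes 27.9% rose and 30.1% fell. Csf1, the ligand of the CSF1 receptor, averaged 156 ± 8.76 CPM in DFO and 379.7 ± 27.7 CPM in control libraries (log2 change -1.28 ± 0.06, edgeR adjusted p = 3.79e-12). Il34, its other ligand, averaged 0.705 ± 0.179 CPM in DFO and 2.44 ± 0.253 CPM in control libraries (log2 change -1.78 ± 0.16, edgeR adjusted p = 4.07e-08). Csf2 averaged 4.93 ± 0.680 CPM in DFO and 0.858 ± 0.213 CPM in control libraries (log2 change 2.54 ± 0.15, edgeR adjusted p = 2.67e-10). In that list 3 of 6 genes rose and 3 fell. Of 9 other myeloid transcription factors 3 rose and 3 fell, with Runx1 (log2 change 0.84 ± 0.05, edgeR adjusted p = 4.70e-10) higher and Nr1h3 (log2 change -0.69 ± 0.07, edgeR adjusted p = 2.43e-07) lower. Of 5 tested stellate markers 3 rose and 1 fell, Col1a1 (log2 change -1.33 ± 0.10, edgeR adjusted p = 7.13e-09). Both tested B cell markers rose and were at 3.25 CPM or less. Of 4 tested cholangiocyte markers 1 rose, Sox9 (log2 change 1.34 ± 0.07, edgeR adjusted p = 5.59e-11), and 2 fell, Spp1 among them. Of the 7 genes of the monocyte list, 5 stayed under 1 CPM in every library. Only F10 (log2 change -1.05 ± 0.08, edgeR adjusted p = 8.05e-09) and Plac8 (log2 change -1.02 ± 0.12, edgeR adjusted p = 1.55e-06) could be tested, and both fell. Which cells their reads came from was not tested. Neutrophil and T cell markers stayed under 1 CPM in every library. The part of these cells in the members' changes was not tested.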

How the data were processed

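Gene counts and FPKM for 22 libraries were used, 12 from hepatocyte and 10 from stellate cultures, in separate tables. The authors deposited whole-number counts per gene, FPKM values and the exonic length of each gene in bases. Per the submitters' processing notes, reads were trimmed with cutadapt 1.9.1 and aligned with HISAT2 2.0.1 to mm10. The counter, its annotation and its strand option were not given in the sources used here. The deposited FPKM equalled counts per kilobase and 1000000 counts within 1% for 100% of values over 1. The labels' protocols name a kit for small RNA, and their replicate number differs from the libraries listed.

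The counts were filtered with edgeR's filterByExpr, scaled by TMM and tested with the quasi-likelihood test of edgeR 4.0.16 (R 4.3.3), each cell type alone, treated minus control, with p-values adjusted over all genes tested (Benjamini-Hochberg, threshold 0.05). The standard error is the log2 change divided by the square root of F. The fits were tested on simulated counts. Alternatives were DESeq2 1.42.0, limma 3.58.1 on log2(FPKM + 1) and log2(FPKM + 0.1), voom with sample weights, no filter, a replicate block and leaving out libraries. In every pair of libraries of a group, counts differed beyond sampling noise. The 38 members, the gene lists and the tests were chosen with earlier results of these data known. All members were named; per-library values are given for the most abundant members of each role, for all antigen presentation, Fc receptor, oxidase and lipid-associated genes and for members against the majority, and up to 3 genes of smallest p from each other list. Other named genes were chosen after their values were seen. Promoter windows were searched for exact letters. Some genes of these lists are not reported here.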

Additional observations from a re-analysis of the deposited data

Results flagged for a closer look

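Among 152 sets of libraries of 1 group and 1 member, 13 held a library far from the others by Dixon's test, which chance gives in about 1 of 20 sets. In stellate cultures, iron 5 was apart for Laptm5 at 278.5 CPM (nearest iron library 127.9), for Aif1 at 28.8 CPM (9.64), for Fcgr4 at 58.4 CPM (21.6) and for Spp1 at 152.3 CPM (650.2 and above). Control 3 was apart for Ptprc at 16.7 CPM (7.10) and for Msr1 at 23.5 CPM (10.4). Both are among the 3 libraries that stand apart in summed FPKM and exonic length, and their part in these values was not tested.

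In hepatocyte cultures the libraries far from their group were DFO 5 for Adgre1 at 6.73 CPM, DFO 6 for Wfdc17 at 12.9 CPM and Fcgr3 at 5.94 CPM, and DFO 1 for H2-Aa at 0.894 CPM. Among controls they were control 2 for Itgam at 0.507 CPM, control 4 for Aif1 at 1.85 CPM and control 3 for Trem2 at 7.67 CPM.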

How the results depend on the processing

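In stellate cultures 25 members rose. Leaving out 1 library gave 23 to 31, and the other alternatives 24 to 35, except the replicate block, which gave 13 (0 fell in every alternative). The calls over all 15502 genes moved as well. Of these, 628 rose in the main fit, 107 with the replicate block and 3055 with voom sample weights, which gave the 35. In hepatocyte cultures 27 rose and 2 fell. Leaving out 1 library gave 25 to 28 higher and 2 to 3 lower, the replicate block 26 and 2, and the other alternatives 21 to 27 higher and 2 lower. Of all 15660 genes there, 4375 rose and 4713 fell in the main fit, and 3924 rose and 4311 fell with the replicate block. By limma on log2(FPKM + 1), which gave the 21, 3270 of 13582 genes rose and 4876 fell. Over all genes tested, deviations from group means of same-numbered libraries had correlations of -0.32 to 0.12 in stellate and -0.245 to -0.003 in hepatocyte cultures. Other pairs of a treated and a control library gave -0.259 to 0.355 and -0.157 to 0.224. The labels do not say whether same-numbered libraries share an animal or an isolation, and these correlations cannot decide it. Uncalled members turned sign as follows, and the cause was not tested. In stellate cultures Gpnmb was -0.002 without iron 1 and -0.081 without iron 2, and Itgax -0.097 with the replicate block, -0.043 with limma on log2(FPKM + 0.1), -0.069 with voom sample weights, -0.384 without iron 5 and -0.182 over 7 libraries. In hepatocyte cultures Aif1 was 0.069 without control 4 and 0.018 without DFO 1, and Cd52 0.018 without control 6. Leaving out 1 library moved these 4 values over -0.081 to 0.267 for Gpnmb, -0.384 to 0.415 for Itgax, -0.176 to 0.069 for Aif1 and -0.227 to 0.018 for Cd52. Trem2 held 20 counts in all iron and 9 in all control stellate libraries, which left it untested. H2-Aa and Cd74 were at 0 in iron 5 and control 3, and the part of depth or library quality in these zeros was not tested.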
